A study of Mus musculus with 6 samples.

Results

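The kinesin and tubulin genes are the motor and track genes of the microtubule system, and 53 of the 55536 genes in the count table of mouse testis RNA belong to the set described here. They are the protein-coding genes whose symbol in the mouse genome build GRCm38 begins with Kif and a digit or c, or with Tuba, Tubb, Tubg, Tubd or Tube and a digit, with at least 10 counts in at least 2 libraries. Of 62 genes that follow this rule on names, 3 genes in the part of chromosome 4 that holds the Padi genes and 1 further tubulin gene were left out. Another 5 were under the count floor, namely Tubb1, Tubb2b, Tubb4a, Kif28 and Kif12, which had 0 counts in all libraries. The 53 members are 38 Kif genes, of which Kif1bp codes for a kinesin binding protein and not for a motor, and 15 tubulin genes.

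RNA was sequenced from whole testes of 4-month-old male mice of 3 genotypes, with 2 libraries each, to ask which transcripts change when peptidylarginine deiminases, the enzymes that turn arginine into citrulline in proteins, are missing. WT mice were FVB/NJ, P2KO mice were Padi2 single KO, and DKO mice were Padi2/Padi4 double KO, so that both knockout lines carry the same Padi2 allele. All lines were kept homozygous on the FVB/NJ background. The Padi2 allele is a gene trap that puts LacZ and neomycin sequence in place of the first coding part of the gene in every cell, and the DKO line descends from P2KO embryos in which Padi4 was cut by CRISPR/Cas9 in exon 1, so that line and allele cannot be told apart. Counts over the whole Padi2 gene say little about the trapped exon and were 47 and 64 in WT, 100 and 55 in P2KO and 59 and 83 in DKO. Padi4 had 20 and 43 counts in WT, 11 and 10 in P2KO and 4 and 4 in DKO. Total counts were 21939393 to 27306679 per library. Of 63 markers of germ cells at each stage and of the somatic cells of the testis, 0 were at 0 in all libraries. A single read passes a marker, so this does not check the labelled tissue.

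Microtubules are hollow polymers of alpha and beta tubulin pairs, started at centrosomes by rings that hold gamma tubulin, while delta and epsilon tubulin belong to centrioles. Kinesins use ATP to carry cargo along these tracks, to slide them in the meiotic and mitotic spindle, or to take them apart at their ends. In the testis the same parts build the spindles of dividing germ cells, the manchette that shapes the spermatid head and the axoneme of the sperm tail. By these roles the motors were sorted into 15 transport kinesins, 14 spindle kinesins, 6 kinesins of cilia and flagella and 2 others (Kif26a and Kif26b), and the tubulins into 7 alpha, 4 beta and 4 gamma, delta or epsilon genes.

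Several members are close copies of each other, which bears on how well their reads could be told apart. Tuba3a and Tuba3b, both on chromosome 6, code for the same protein of 450 residues, but their coding sequences were 97.0% identical, with 41 mismatches in 1353 nt. The 60 nt in which they differ most are shown to make clear what separates their reads. Both stretches lie in exon 3 (coding positions 313 to 372), at chr6:125282356-125282415 on the minus strand for Tuba3a and at chr6:145618818-145618877 on the plus strand for Tuba3b (GRCm38), and capitals mark the 9 mismatches.
Tuba3a: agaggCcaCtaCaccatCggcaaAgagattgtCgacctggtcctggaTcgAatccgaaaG
Tuba3b: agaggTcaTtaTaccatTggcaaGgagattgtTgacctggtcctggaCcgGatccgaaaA
Only 2.65% of the 150-nt windows of the Tuba3a transcript, and 2.21% of those of Tuba3b, were found unchanged in a transcript of a gene elsewhere, so most reads of 150 nt could be assigned to 1 of the pair. Kifc1 and Kifc5b on chromosome 17, minus-end motors of the spindle, were 97.6% identical as proteins and shared 10.4% and 9.23% of such windows. Of their 60-nt stretches at least 60 nt from any gap in the alignment, the one with most mismatches lies in exon 2. It is shown at chr17:33886777-33886836 on the minus strand for Kifc1 and chr17:26920859-26920918 on the plus strand for Kifc5b, with the 2 mismatches in capitals. Stretches nearer to a gap were not considered, so the pair may differ more elsewhere.
Kifc1: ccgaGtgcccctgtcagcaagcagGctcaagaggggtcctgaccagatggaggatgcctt
Kifc5b: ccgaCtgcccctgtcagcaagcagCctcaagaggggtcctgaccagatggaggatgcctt
The Tuba1 genes shared more, with 37.5% of windows for Tuba1a, 53% for Tuba1b and 46.7% for Tuba1c, as did Tubb2a (27.9%, mainly with Tubb2b) and Tubb4b (16.8%, mainly with the pseudogene Tubb4b-ps1). STAR counted uniquely mapped reads, so the levels of these genes are uncertain. The reads were sequenced in pairs of 150 nt each. The shares of windows treat 1 read alone and do not give the part of read pairs lost. In all, 22 members share exonic positions with another annotated gene, 18 of them only with genes on the other strand, and which strand setting the counts were made with is not given in the sources used here.

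The level of a gene was measured as its normalized count (the count after scaling for library size by the TMM method, so that the libraries can be compared) per kilobase of merged exon. The highest levels belonged to 3 tubulins. In WT, Tuba3b stood at 21629 ± 147, Tuba3a at 18659 ± 350 and Tubb4b at 14881 ± 95.1 normalized counts per kb (mean ± SD, n = 2). Together Tuba3a and Tuba3b, alpha tubulins known from the testis, made up 86.2% ± 0.534 of the summed alpha tubulin level in WT, 85.9% ± 0.64 in P2KO and 85.6% ± 0.511 in DKO. Tubb4b, a beta tubulin of axonemes, made up 93.6% ± 0.274, 93.1% ± 0.188 and 93.5% ± 0.176 of the level of the 4 beta tubulins (SD, n = 2 each), a sum that does not hold the 1 tubulin left out. In the plot of the tubulin make-up the 6 bars of each kind are nearly the same.

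**Figure D1:**
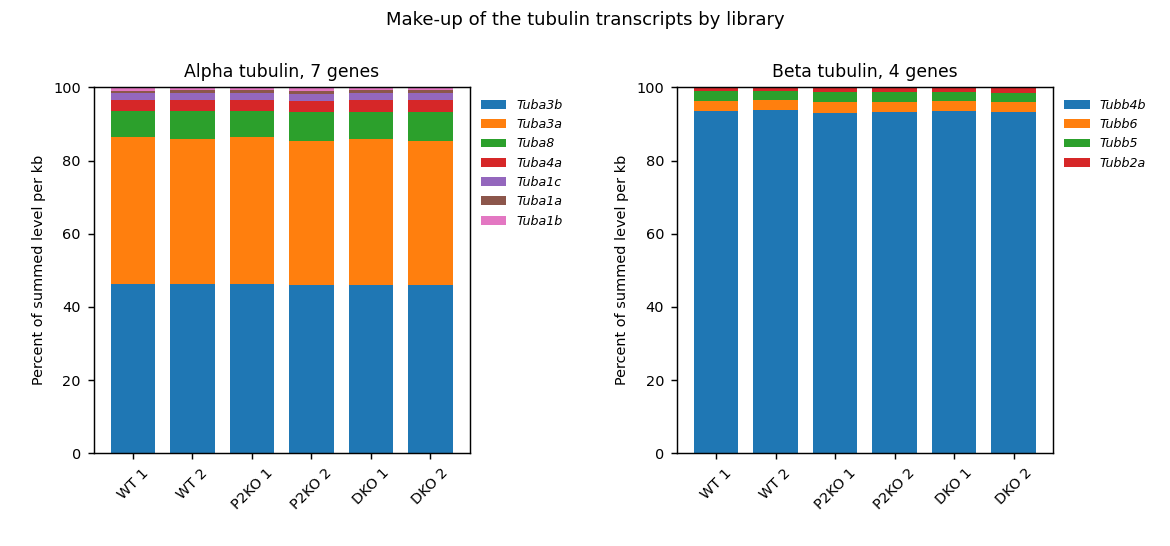
Share of each gene in the summed level per kb of the 7 alpha tubulins (left) and the 4 beta tubulins (right), in percent, with 1 stacked bar per library. Tuba3b and Tuba3a take 85.2% to 86.5% of the alpha tubulin level and Tubb4b takes 93.0% to 93.8% of the beta tubulin level in every library.

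Among the motors, Kif2b stood highest, at 7237 ± 216 normalized counts per kb in WT. It codes for a kinesin-13, which shortens microtubules at their ends rather than walking along them, and it is the only member with a single exon (chr11:91575315-91577558, minus strand). Kif9 (1843 ± 60.7) and Kif27 (1793 ± 85.5), motors of motile cilia and flagella, came next, followed by the kinesin-2 gene Kif3b (1291 ± 112) and the kinesin-13 gene Kif2a (1026 ± 3.99). Kif2b alone held 41.2% ± 0.149 of the summed kinesin level in WT, 42.6% ± 0.939 in P2KO and 40.1% ± 0.382 in DKO, and these 5 genes together held 75.1% ± 0.21, 75.7% ± 0.167 and 74.3% ± 0.0692. At the other end Kif3c stood at 8.49 and Kif26b at 4.40 ± 0.907 normalized counts per kb, so that the members spanned over 3 orders of magnitude in the plot of levels.

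**Figure D2:**
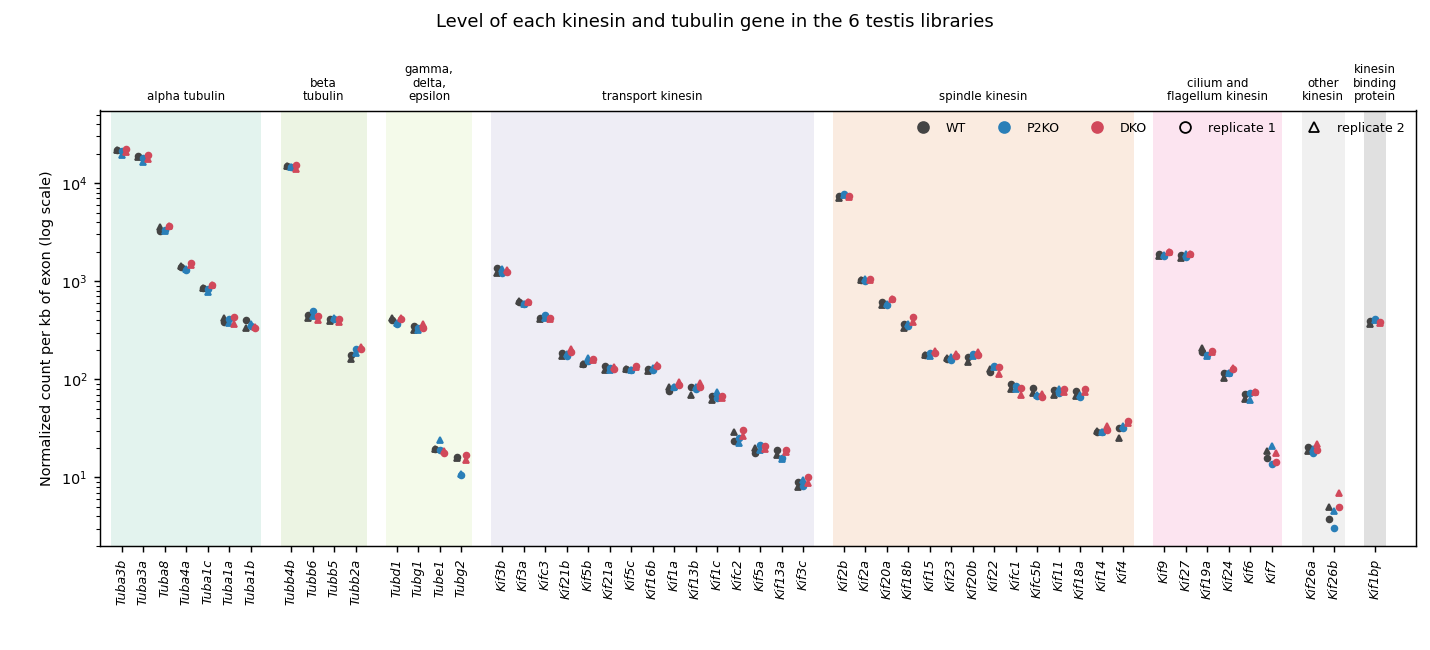
Normalized count per kb of merged exon (log axis) of the 53 members in the 6 libraries, grouped by role and ordered by the WT mean, with color for the genotype and symbol for the replicate. Levels ran from 21629 for Tuba3b to 4.40 for Kif26b in WT, and the libraries of the 3 genotypes lay close together for nearly every gene.

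The upstream sequences of Tuba3a and Tubb4b, from the alpha tubulin next in level to Tuba3b and from the beta tubulin with the highest level, are shown because both hold several copies of CCAAT, the box to which the NF-Y factor binds. These are the 250 bases before the start site in RefSeq's promoter table (GRCm38.p6), at chr6:125286082-125286331 for Tuba3a and at chr2:25224703-25224952 for Tubb4b, both on the minus strand, with CCAAT in capitals.
Tuba3a: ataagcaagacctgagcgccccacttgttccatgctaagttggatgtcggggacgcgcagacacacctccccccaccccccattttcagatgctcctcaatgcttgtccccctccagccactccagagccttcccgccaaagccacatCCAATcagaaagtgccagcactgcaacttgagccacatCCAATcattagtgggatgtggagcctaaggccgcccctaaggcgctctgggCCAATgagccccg
Tubb4b: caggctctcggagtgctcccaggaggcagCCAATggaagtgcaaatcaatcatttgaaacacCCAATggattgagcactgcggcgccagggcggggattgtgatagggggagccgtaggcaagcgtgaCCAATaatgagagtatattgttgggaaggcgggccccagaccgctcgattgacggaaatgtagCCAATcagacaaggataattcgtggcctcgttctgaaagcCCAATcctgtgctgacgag
Tuba3a holds 3 copies, Tubb4b 5 and Tuba3b 2. The upstream windows of Tuba3a and Tuba3b aligned over 230 columns with 73% identical bases, so they differ more than the coding sequences do. Of the 42 members matched in the promoter table, 52.4% held CCAAT on either strand in these 250 bases, beside 37.5% of the 27025 genes of the table, and 23.8% held it at least 2 times, beside 11.3%. Among the spindle kinesins 9 of 13 held it (69.2%), and among the transport kinesins 2 of 9 (22.2%). The half-site TGACG of the cAMP response element, which overlaps the full element TGACGTCA, was found on either strand in 42.9% of members and 19.8% of all genes, the full element in 4.76% and 1.77%, TTTGAA, the letters of the cell cycle homology region, in 21.4% and 18.3%, TATAAA in 9.52% and 14.3%, and GGGCGG in 59.5% and 35.4%. The genes of the promoter table, unlike the members, were not filtered by counts or gene type, so these shares compare unlike sets. A match to letters is a description and no binding was measured here.

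The first comparison asked whether kinesin and tubulin transcripts differed between P2KO and WT testes. None of the 53 members was called at an adjusted p under 0.05 (edgeR quasi-likelihood test with Benjamini-Hochberg adjustment over 20744 tested genes, all of the members among them), where 0.337% of all tested genes were called. The smallest adjusted p of a member was 0.535. At an unadjusted p under 0.05 there were 2 members higher and 1 lower in P2KO, where 4.55% of all tested genes were higher and 4.02% lower, and DESeq2 on all 6 libraries called 0, with 0 at an unadjusted p under 0.05. With upper-quartile scaling 6 members were at that p by edgeR. With a library left out the number was highest without WT replicate 1 and lowest without P2KO replicate 2. The median log2 fold change was 0.01 over the 38 Kif genes and −0.05 over the 15 tubulins, beside 0.00 over all tested genes.

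All 7 alpha tubulins were fitted lower in P2KO than in WT, with log2 fold changes from −0.11 to −0.05, none of which was called. The direction was the same under each scaling, while 1 or 2 of the 7 turned above 0 without P2KO replicate 2 or without either WT library. Tuba3b had normalized counts of 38577 and 38207 in WT, 37385 and 34059 in P2KO, and 39794 and 37163 in DKO. Tuba3a had 28529 and 27782 in WT, 27487 and 24896 in P2KO, and 29448 and 26851 in DKO. For both genes P2KO replicate 2 was the lowest library, and the P2KO libraries lay below those of WT. Each had a log2 fold change of −0.10 in P2KO against WT (SE 0.0539 and 0.0563), with adjusted p of 0.601 and 0.626 by edgeR. Without P2KO replicate 1 these were −0.17 for Tuba3b and −0.18 for Tuba3a, and without P2KO replicate 2 both were −0.04. Over all members the libraries of P2KO and WT did not overlap for 20 genes, beside 37.5% of all tested genes. Of these 8 were higher in P2KO (18.7% of all tested genes) and 12 lower (18.8%).

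The largest fitted difference of this comparison was in Tubg2, the less abundant of 2 gamma tubulin genes. Tubg2 had normalized counts of 28.2 and 27.8 in WT, 18.6 and 19.2 in P2KO, and 29.7 and 26.5 in DKO, so that P2KO was lower than the other genotypes without overlap. With so few counts its log2 fold change was −0.56 with a 95% interval from −1.28 to 0.15 (adjusted p = 0.712, edgeR). Tubg1, 96.7% identical to it as a protein, made up 95.5% of their summed level per kb in WT, 96.8% in P2KO and 95.6% in DKO, and its log2 fold change was −0.04. Tubg1 had normalized counts of 798 and 725 in WT, 754 and 719 in P2KO, and 761 and 835 in DKO, and WT and P2KO overlapped.

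Among members with a mean normalized count of at least 50, the genes fitted highest in P2KO against WT were Tubb2a, Kif4 and Kif20b. Kif20b, a motor of cytokinesis, had normalized counts of 1174 and 1039 in WT, 1265 and 1216 in P2KO, and 1245 and 1332 in DKO. Its 4 knockout libraries lay above both WT libraries, with a log2 fold change of 0.17 ± 0.0761 (SE) in P2KO and an adjusted p of 0.535 (edgeR), which was 0.08 without WT replicate 2 and 0.25 without WT replicate 1. The genes fitted lowest were Kif26b, Kif13a and Kif19a. For Kif26b the log2 fold change of −0.23 turned to 0.007 without WT replicate 2 and to 0.04 without P2KO replicate 1. Kif19a, which controls the length of motile cilia, had 774 and 841 in WT, 719 and 705 in P2KO, and 787 and 769 in DKO. Its log2 fold change was −0.18 ± 0.0827 (SE) in P2KO against WT, at an adjusted p of 0.535 (edgeR). Kif13a, a motor of endosome transport, had 153 and 136 in WT, 128 and 126 in P2KO and 155 and 148 in DKO, which put both P2KO libraries at the bottom.

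**Figure D3:**
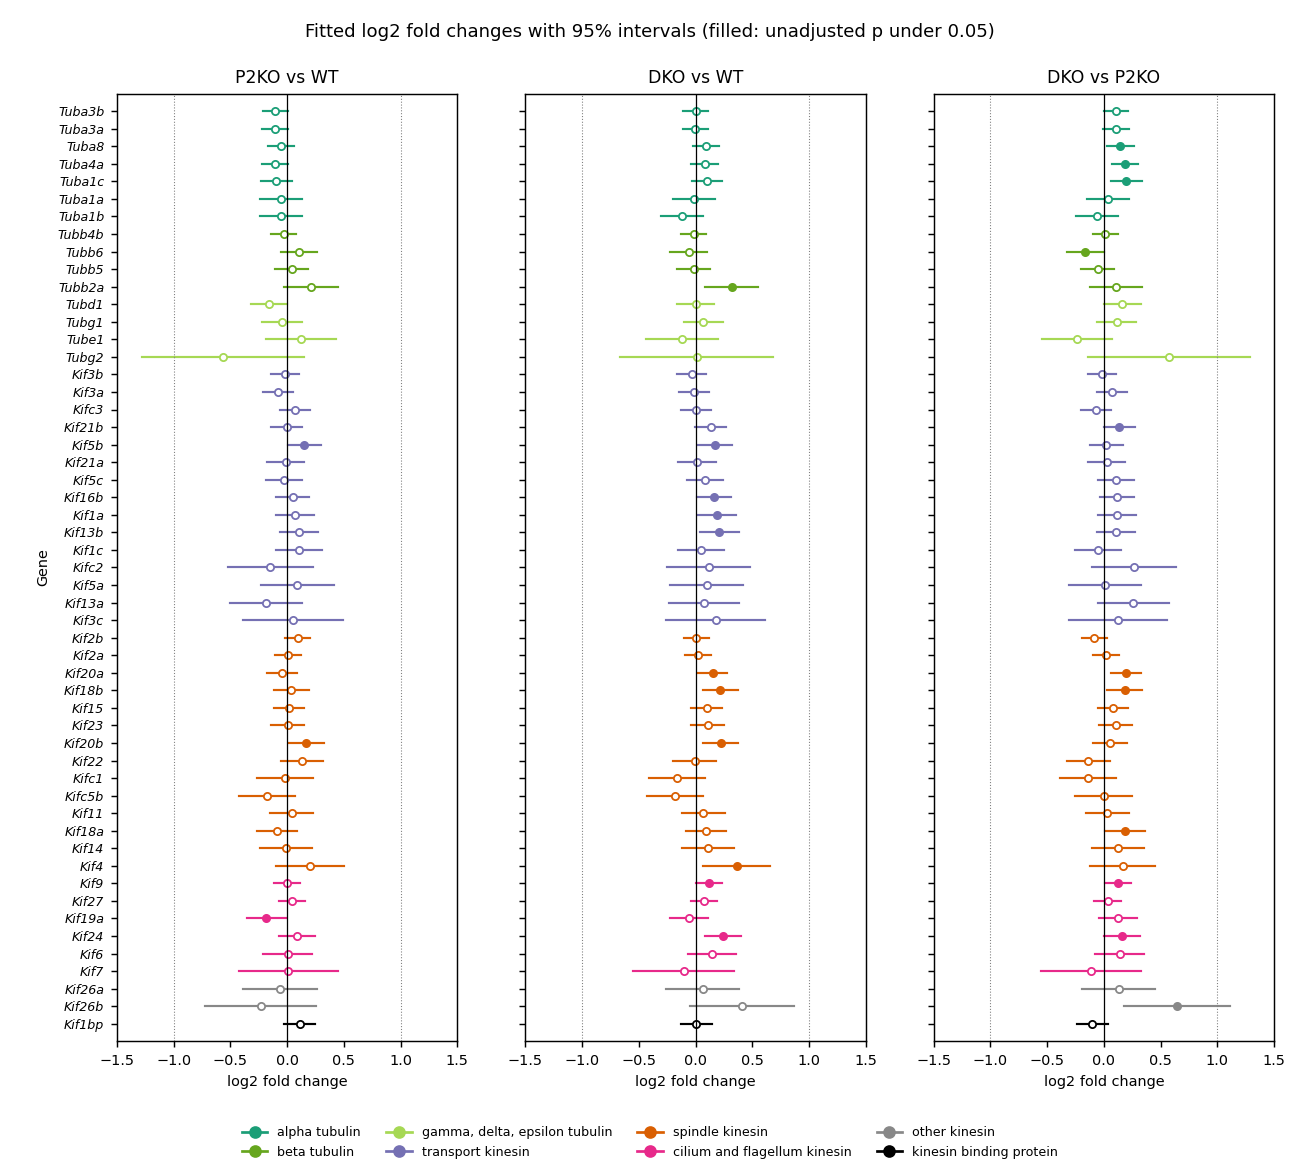
Fitted log2 fold change (points) with its 95% interval (lines) of each member in the 3 comparisons, colored by role, filled where the unadjusted p was under 0.05, with dotted lines at a 2-fold change. No member was called after adjustment, 11 members were filled in DKO against WT and all of those 11 lay to the right of 0.

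The second comparison set DKO against WT. Here too 0 of 53 members were called, where 3.22% of all tested genes were (edgeR quasi-likelihood test, Benjamini-Hochberg adjustment), and the smallest adjusted p was 0.0876, for Kif24. At an unadjusted p under 0.05 there were 11 members, all of them higher in DKO, beside 7.89% of all tested genes higher and 6.25% lower. With 1 library left out this number ran from 4 (without WT replicate 2 and without DKO replicate 2) to 12, and it was 6 without DKO replicate 1. DESeq2 on all 6 libraries called 0, with 8 at an unadjusted p under 0.05. The median log2 fold change was 0.10 over the Kif genes and 0.00 over the tubulins, beside 0.00 over all tested genes, and 31 of 38 Kif genes and 8 of 15 tubulins were fitted higher in DKO, where 48.8% of all tested genes were. With upper-quartile scaling these counts were 26 of 38 and 5 of 15. The libraries of DKO and WT did not overlap for 23 members, 21 higher and 2 lower in DKO, where 43.2% of all tested genes did not overlap (21.6% higher and 21.6% lower).

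Kif24, a kinesin of the centriole that holds back the growth of primary cilia, lies on chromosome 4 outside the region left out (chr4:41390745-41464887, minus strand). Kif24 had normalized counts of 924 and 830.4 in WT, 929.6 and 927 in P2KO, and 1032 and 1042 in DKO, so that DKO was higher than both other genotypes. Its log2 fold change in DKO against WT was 0.24 ± 0.0786 (SE). The spindle kinesins Kif18b and Kif20b were next, with log2 fold changes of 0.22 ± 0.0747 and 0.22 ± 0.0761 (SE) and adjusted p of 0.114 and 0.119 by edgeR. Kif18b, which shortens astral microtubules, had 1311 and 1190.5 in WT, 1259.5 and 1306 in P2KO, and 1533 and 1375 in DKO. Kif13b, a transport motor, had 1088 and 903 in WT, 1045 and 1093 in P2KO, and 1093 and 1206 in DKO, where WT replicate 2 was the lowest library.

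Whether any member was called in DKO against WT turned on 1 library. Without WT replicate 1, DKO against WT gave 4 called members, namely Kif13b (log2 fold change 0.34, adjusted p = 0.00987), Kif20b (0.30, 0.0207), Kif24 (0.32, 0.028) and Kif18b (0.28, 0.0301), all by edgeR on 5 libraries, in which the lone WT library is assumed to vary like the other genotypes. That fit called 1065 of 21769 genes tested, or 4.89%. With any 1 of the other 5 libraries left out instead, 0 members were called in DKO against WT. The lowest log2 fold changes in those fits were 0.08 for Kif13b, 0.13 for Kif20b and 0.17 for Kif24, all without WT replicate 2, and 0.13 for Kif18b without DKO replicate 1.

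The largest fitted rises of members with a mean normalized count of at least 50 were in Kif26b, Kif4 and Tubb2a. Kif26b, an atypical kinesin, had normalized counts of 55.2 and 74.1 in WT, 45.2 and 67.1 in P2KO, and 72.8 and 102 in DKO. In each genotype its replicates were far apart, WT and DKO overlapped, and its log2 fold change of 0.41 had a 95% interval from −0.05 to 0.87 and ran from 0.16 without DKO replicate 2 to 0.65 without WT replicate 2. Kif4, a motor that rides on mitotic chromosomes and lies on the X chromosome, had 177 and 141 in WT, 177 and 185 in P2KO, and 209 and 197 in DKO. Tubb2a had 286 and 258 in WT, 328 and 298 in P2KO, and 330.5 and 347 in DKO. Both were lowest in WT and highest in DKO, with log2 fold changes of 0.36 ± 0.146 and 0.32 ± 0.116 (SE) and adjusted p of 0.208 and 0.151 by edgeR. The value of Kif4 ran from 0.20 without WT replicate 2 to 0.52 without WT replicate 1. Tubb2a was the only one of the 4 beta tubulins above an absolute log2 fold change of 0.1.

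The 3 members fitted lowest in DKO against WT were Kifc5b, Kifc1 and Tube1. Kifc5b had normalized counts of 301 and 268 in WT, 248 and 254 in P2KO, and 242 and 259.7 in DKO, and its near-copy Kifc1 had 305 and 274 in WT, 294 and 275 in P2KO, and 277 and 239 in DKO. For Kifc5b the 4 knockout libraries lay below both WT libraries, and for Kifc1 the genotypes overlapped. Their log2 fold changes were −0.18 ± 0.121 and −0.16 ± 0.122 (SE), with adjusted p of 0.563 and 0.616 by edgeR. With a library left out Kifc5b ran from −0.26 to −0.10 and Kifc1 from −0.28 to −0.06. The abundant members had log2 fold changes in DKO against WT of 0.00 for Tuba3b and Tuba3a, −0.01 for Tubb4b and 0.01 for Kif2b, and their 95% intervals had lower bounds from −0.12 to −0.10 and upper bounds from 0.09 to 0.12. Kif2b had 16581 and 15896 in WT, 17484 and 17123 in P2KO, and 16526 and 16104 in DKO, while Tubb4b had 31212 and 30931, 30733 and 30175, and 32328 and 29178 in the same order. Kif27 had 9664 and 9034 in WT, 9317 and 9972 in P2KO, and 9931 and 9802 in DKO, and Kif9 had 8105 and 7736, 7750.4 and 8041, and 8613 and 8614, with a log2 fold change of 0.12 ± 0.0561 (SE) in DKO against WT and an adjusted p of 0.311 by edgeR.

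**Figure D4:**
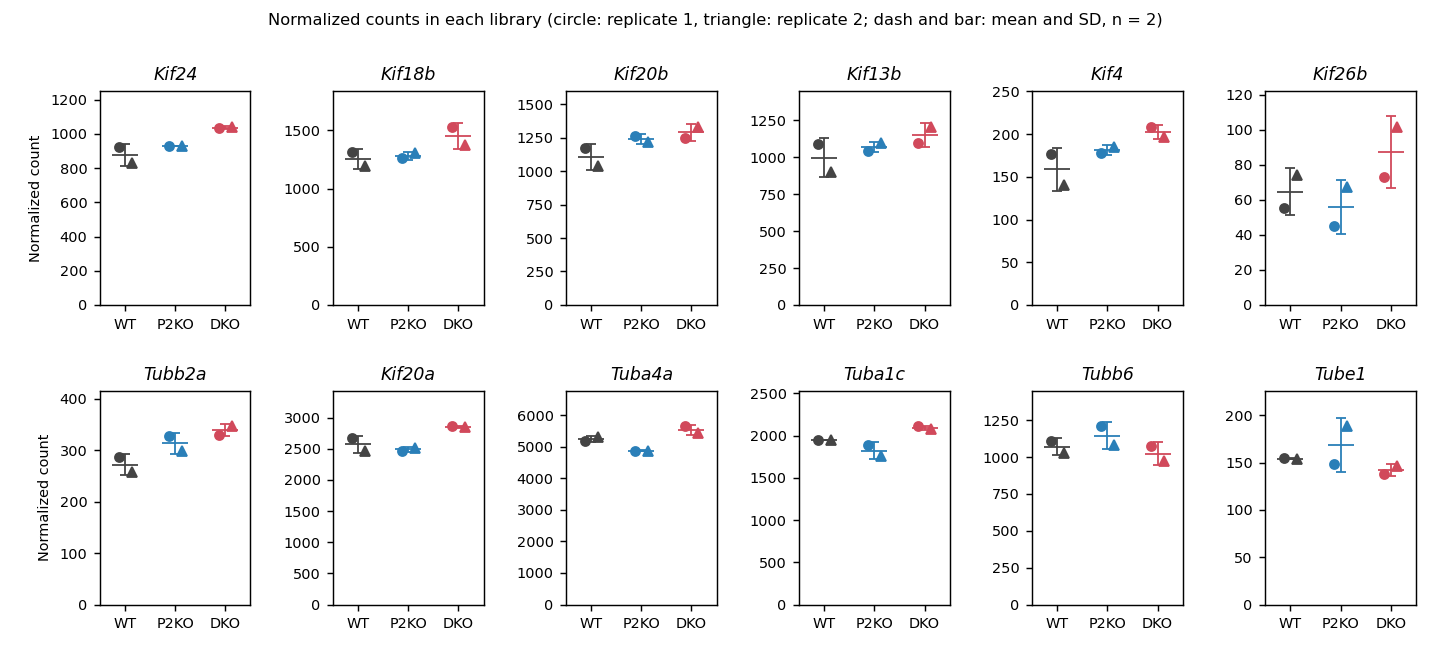
Normalized counts of 12 members in the 6 libraries (circle for replicate 1, triangle for replicate 2) with the mean and SD of each genotype (n = 2) on axes that start at 0. Kif24 was highest in both DKO libraries (1032 and 1042), Tuba4a was lowest in both P2KO libraries (4862 and 4884), and the replicates of Kif26b were far apart in each genotype.

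The Kif genes are long, with a median merged exon length of 6697 nt, the tubulins short, with 2088 nt, and fold changes in DKO against WT ran with length. Across all 20744 tested genes, which come from the same 6 libraries, Spearman's rho of log2 fold change and exon length was 0.292, and across the 53 members it was 0.482. The deviation of a library's log2 normalized counts from the mean of all libraries had a rho with length of −0.301 in WT replicate 2 and −0.052 in WT replicate 1, and of 0.172 and 0.175 in the DKO libraries. Offsets for gene length were then added to the fit. They were drawn from the trend with length in each of these same libraries. They would also take out a difference between genotypes that runs with length. A rho near 0 over all genes follows from that design. With the offsets rho in DKO against WT was 0.012 over all genes and −0.039 over the members. Over the 38 Kif genes alone it was 0.515 without the offsets and 0.207 with them, and in DKO against P2KO it was 0.315 and 0.234. The median log2 fold change then was 0.02 over the Kif genes and 0.06 over the tubulins, with 26 of 38 Kif genes and 12 of 15 tubulins fitted higher in DKO, and 0 members were called (smallest adjusted p = 0.0674, edgeR). The plot of fold change against length shows both fits.

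**Figure D5:**
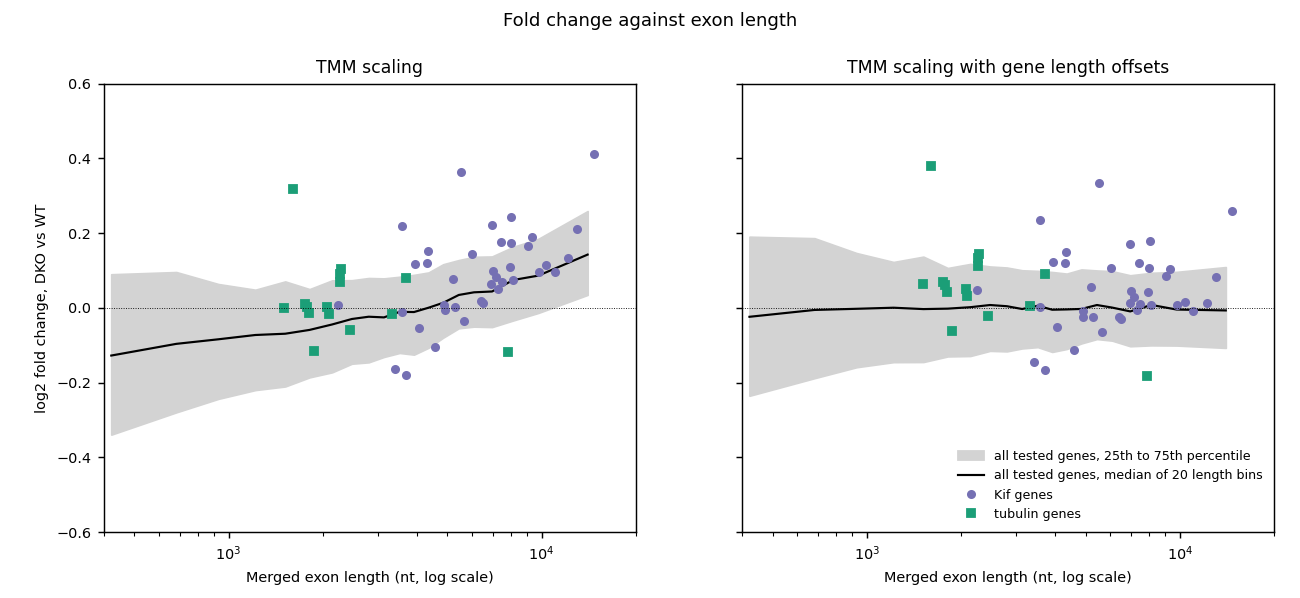
Log2 fold change in DKO against WT (vertical axis) by merged exon length in nt (horizontal axis, log scale) for the Kif genes and tubulins, over the median and the 25th to 75th percentile of all tested genes in 20 bins of length, with TMM scaling alone (left) and with gene length offsets (right). On the left the median of all genes climbs with length and most Kif genes lie at the long end, with a median of 0.10, and on the right the Kif genes have a median of 0.02.

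The third comparison, DKO against P2KO, asks what differs between lines that share the Padi2 allele. Of the 53 members 0 were called, where 1.21% of all tested genes were (edgeR quasi-likelihood test, Benjamini-Hochberg adjustment), with a smallest adjusted p of 0.12 for Tuba4a. At an unadjusted p under 0.05 there were 10 members higher and 1 lower in DKO, beside 6.17% and 5.68% of all tested genes, and DESeq2 on all 6 libraries called 0, with 6 at an unadjusted p under 0.05. By edgeR fewer members were at that p without any 1 of the DKO and P2KO libraries, and more without either WT library. The median log2 fold change was 0.10 over the Kif genes and 0.11 over the tubulins, beside 0.00 over all tested genes. In this fit 29 of 38 Kif genes and 11 of 15 tubulins were fitted higher in DKO. With gene length offsets the medians were 0.08 and 0.14, with 27 of 38 and 11 of 15 fitted higher. The libraries did not overlap for 31 members, 25 higher and 6 lower in DKO, where 42.8% of all tested genes did not overlap (21.1% higher and 21.6% lower). This comparison shares the P2KO libraries with the first and the DKO libraries with the second, so its values are not independent of theirs.

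Tuba4a, an alpha tubulin whose gene lacks the usual terminal tyrosine codon, had normalized counts of 5181 and 5306 in WT, 4862 and 4884 in P2KO, and 5655 and 5429 in DKO. The genotypes did not overlap, with P2KO lowest and DKO highest, and the log2 fold change in DKO against P2KO was 0.19 ± 0.0577 (SE). Kif20a, a motor of cytokinesis, had 2669.9 and 2469.8 in WT, 2460.5 and 2519 in P2KO, and 2861 and 2842 in DKO, with a log2 fold change of 0.20 ± 0.0634 (SE) and an adjusted p of 0.14 by edgeR. When edgeR was fitted to the DKO and P2KO libraries alone, these were the 2 members called, with adjusted p of 0.0317 and 0.044, where 2.86% of 20262 genes were. DESeq2 on those 4 libraries called Tuba4a (adjusted p = 0.0358), gave no adjusted p for 16 of the 53 members and called 3.49% of the 6992 genes it adjusted over. They were also called without WT replicate 1 (edgeR adjusted p of 0.0326 and 0.0484) and without WT replicate 2 (0.027 and 0.0413), where 2.65% and 2.92% of all tested genes were. Neither gene was called by edgeR without any 1 of the DKO and P2KO libraries. With a library left out the log2 fold change ran from 0.15 to 0.22 for Tuba4a and from 0.18 to 0.22 for Kif20a. Tuba4a shares exonic positions with Stk16 and Kif20a with Cdc23, each on the other strand.

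Tuba1c had normalized counts of 1948 and 1953 in WT, 1892 and 1757 in P2KO, and 2112 and 2079 in DKO, again lowest in P2KO and highest in DKO, with a log2 fold change of 0.20 ± 0.0661 (SE) in DKO against P2KO and an adjusted p of 0.156 by edgeR. Its close copies did not show this order. Tuba1a had 692 and 768 in WT, 736 and 673 in P2KO, and 783 and 664 in DKO, and Tuba1b had 757 and 631, 648 and 688, and 629 and 648, with log2 fold changes of 0.04 and −0.06. Tubb5 had 1383 and 1304 in WT, 1369.5 and 1392 in P2KO, and 1378 and 1279 in DKO, so that its libraries overlapped throughout.

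Among members with a mean normalized count of at least 50, those fitted highest in DKO against P2KO were Kif26b (log2 fold change 0.65 ± 0.231, SE), the transport motor Kifc2 (0.26 ± 0.181) and Kif13a (0.26 ± 0.154), with edgeR adjusted p of 0.199, 0.603 and 0.53. The value of Kif26b ran from 0.37 without P2KO replicate 1 to 0.95 without P2KO replicate 2. Tubg2, below that count, had a log2 fold change of 0.57 with a 95% interval from −0.14 to 1.29 and an adjusted p of 0.551 (edgeR). Kifc2 had normalized counts of 93.5 and 113 in WT, 98.5 and 88.4 in P2KO, and 119.7 and 105 in DKO. The members fitted lowest in the same range were Tube1 (−0.24 ± 0.153), Tubb6 (−0.16 ± 0.0793) and Kifc1 (−0.14 ± 0.122). With a library left out these ran from −0.41 to −0.05, −0.24 to −0.08 and −0.26 to −0.04, and Kifc2 from 0.16 to 0.35. Tube1, the epsilon tubulin of centrioles, had 154 and 154 in WT, 148 and 188 in P2KO, and 138 and 146 in DKO, where P2KO replicate 2 stood apart. Tubb6 had 1111 and 1028 in WT, 1209.8 and 1082 in P2KO, and 1078 and 971 in DKO, and the DKO libraries lay just below those of P2KO.

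The intervals say how large a change could have been missed. The 95% interval of the fold change lay within 2-fold either way for 52 members in P2KO against WT, 53 in DKO against WT and 51 in DKO against P2KO, where 83.3%, 82.3% and 82.6% of all tested genes did. Within 1.5-fold lay 51, 49 and 50 members, beside 65.0%, 63.0% and 64.1% of all tested genes. Smaller changes than these were not excluded by 2 libraries per genotype.

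The proteins that work with microtubules and motors were read from a list of 94 tested genes outside the chromosome 4 region, among them Kif1bp, which is also a member. In P2KO against WT 0 of 94 were called by edgeR (10 at an unadjusted p under 0.05, where 8.57% of all tested genes were). In DKO against WT 6 rose and 2 fell, where 2.06% of all tested genes rose and 1.16% fell, and in DKO against P2KO 2 rose and 2 fell, where 0.607% rose and 0.598% fell. Cenpe, the kinesin of the kinetochore, which the rule on names does not reach, had normalized counts of 3117 and 3203 in WT, 3330 and 3205 in P2KO, and 3785 and 3884 in DKO. It rose by a log2 fold change of 0.28 ± 0.0606 (SE) in DKO against WT (adjusted p = 0.00411, edgeR) and by 0.23 in DKO against P2KO (adjusted p = 0.0464). With gene length offsets these were 0.20 (adjusted p = 0.0455) and 0.20 (adjusted p = 0.072, edgeR). The call of Cenpe against P2KO was also lost with a term for the replicate number, the replicate block (edgeR adjusted p = 0.073). The same held with upper-quartile scaling (0.0511) and without the chromosome 4 region (0.0588). With offsets and block together its call against WT was lost (edgeR adjusted p = 0.0548). Dync2h1, the dynein heavy chain of cilia, rose by 0.41 ± 0.065 (adjusted p = 6.45e-05) and Dync1h1, the cytoplasmic dynein heavy chain, by 0.41 ± 0.0744 (adjusted p = 0.000496) on the log2 scale in DKO against WT. With gene length offsets the same values were 0.25 (adjusted p = 0.00559) and 0.26 (adjusted p = 0.0106, edgeR). Dync2h1 also rose against P2KO, by 0.27 (adjusted p = 0.0235, edgeR), or by 0.20 with gene length offsets (adjusted p = 0.0628), and the call of Dync1h1 was lost with DESeq2 on all 6 libraries (adjusted p = 0.304). The other rises were in the microtubule-end proteins Clasp1, Camsap1 and Ckap5 (0.23, 0.22 and 0.27), all 3 of whose calls were lost with gene length offsets (log2 fold changes of 0.02, 0.15 and 0.18, adjusted p of 0.922, 0.181 and 0.0907, edgeR). The call of Camsap1 was also lost with DESeq2 on all 6 libraries (adjusted p = 0.0743). By edgeR it was lost with upper-quartile scaling (adjusted p = 0.0636), with the replicate block (0.0846) and without the chromosome 4 region (0.056). It was also lost with edgeR on the DKO and WT libraries alone (0.0832). The value of Camsap1 ran from 0.11 without WT replicate 2 to 0.33 without WT replicate 1. With a library left out, the rise of Dync2h1 against WT stayed called in all 6 fits, while Cenpe and Dync1h1 lost their calls against WT without DKO replicate 2 (edgeR adjusted p of 0.116 and 0.0551). The value of Dync1h1 ran from 0.23 without WT replicate 2 to 0.60 without WT replicate 1. Clasp1, Camsap1 and Ckap5 were not called without WT replicate 2 or without either DKO library, and Camsap1 also not without P2KO replicate 1. Against P2KO, Cenpe was not called without any 1 of the 4 libraries compared, and Dync2h1 not without DKO replicate 2 or either P2KO library.

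The 2 partner genes that fell did so in DKO against both other genotypes. Tbcc, a cofactor that completes the folding of tubulin pairs, had normalized counts of 2180 and 1648 in WT, 1678 and 1747 in P2KO, and 1284 and 1249 in DKO. Both DKO libraries were the lowest, and Tbcc fell by 0.59 on the log2 scale against WT (SE 0.0846, adjusted p = 1.28e-05, edgeR) and by 0.43 against P2KO (SE 0.0848, adjusted p = 0.00277). Dynll2, a dynein light chain, had 7349.5 and 6961 in WT, 6514 and 7421 in P2KO, and 5785 and 5834 in DKO, and fell by 0.30 (adjusted p = 0.00206) and 0.26 (adjusted p = 0.0185, edgeR). The fall of Tbcc against WT stayed called with each library left out and ran from −0.78 without WT replicate 2 to −0.38 without WT replicate 1. Dynll2 lost its call against WT without either DKO library (edgeR adjusted p of 0.052 and 0.0509), and both genes lost theirs against P2KO without either DKO library or without P2KO replicate 2. Of the other partner groups, 0 of 27 tubulin-modifying enzymes, 0 of 8 genes of the gamma tubulin ring and 0 of 8 severing genes were called in any comparison, with 5, 0 and 0 at an unadjusted p under 0.05 in DKO against WT (edgeR), where 14.1% of all tested genes were.

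Because whole testis was sequenced, fewer cells of a type and less RNA per cell cannot be told apart. Beside the member values, the summed normalized count of 8 markers of elongating spermatids was 458362 and 473357 in WT, 402027 and 433595 in P2KO, and 438342 and 425932 in DKO. All 8 were fitted lower in P2KO than in WT and 1 (Tnp2, log2 fold change −0.29, lost without P2KO replicate 1 at an edgeR adjusted p of 0.0784) was called, where 0.140% of all tested genes fell. In DKO against WT 2 of 8 fell (Prm1 and Tnp1, −0.22 and −0.25), where 1.16% of all tested genes fell, both lost with gene length offsets (−0.12 and −0.15, adjusted p of 0.325 and 0.194, edgeR), with DESeq2 on all 6 libraries (0.0666 and 0.393) and without either DKO library, and Prm1 also without WT replicate 2. Of 12 spermatocyte markers, the cell type that builds the meiotic spindle, 1 rose in DKO against WT (Sycp2, 0.23, adjusted p = 0.0123, edgeR, and 0.296 without DKO replicate 2), where 2.06% of all tested genes rose, 5 were fitted higher and 7 lower with a median log2 fold change of −0.01, and their sum was 108116 and 113806 in WT, 109044 and 106866 in P2KO, and 109097 and 111471 in DKO. Of 8 round spermatid markers 4 were fitted higher and 4 lower in DKO than in P2KO (median log2 fold change −0.01), and 1 fell, Spaca1, by 0.25 on the log2 scale (adjusted p = 0.0402, edgeR), where 0.598% of all tested genes fell. With gene length offsets Spaca1 had a log2 fold change of −0.21 (adjusted p = 0.0588), and the call was also lost with DESeq2 on all 6 libraries (adjusted p = 0.0645) and without either DKO library or P2KO replicate 1. The 10 Sertoli cell markers were all fitted higher in P2KO than in WT (median log2 fold change 0.11, 1 at an unadjusted p under 0.05, where 4.55% of all tested genes were higher at that p) and all fitted lower in DKO than in P2KO (median −0.15, 3 at an unadjusted p under 0.05, where 5.68% were lower), and 0 were called by edgeR in either comparison. Their sum was 31045 and 30132 in WT, 30952 and 32211 in P2KO, and 31279 and 27552 in DKO. In DKO against WT 2 of the Sertoli cell markers were fitted higher and 8 lower (median −0.06). Of these, 0 were at an unadjusted p under 0.05 by edgeR, where 14.1% of all tested genes were. Of 6 Leydig cell markers 3 rose in DKO against WT (Star, Cyp17a1 and Cyp11a1), where 2.06% of all tested genes rose, and Lhcgr had a log2 fold change of −0.38 ± 0.131 (SE; adjusted p = 0.128, edgeR) with both DKO libraries below WT. All 3 calls were lost with DESeq2 on all 6 libraries (adjusted p of 0.186, 0.663 and 0.527), and without DKO replicate 1 Cyp17a1 and Cyp11a1 had log2 fold changes of 0.08 and 0.07 and were not called. The sums of the 6 were 15118 and 14422 in WT, 17655 and 15537 in P2KO and 20444 and 16221 in DKO. Insl3 and Hsd17b3 had log2 fold changes of 0.04 and 0.08 in DKO against WT. In P2KO against WT 5 of the 6 were fitted higher and 1 lower (Hsd17b3, −0.22), with 0 called. The median was 0.18 in P2KO against WT and 0.18 in DKO against WT. In P2KO against WT Cyp11a1 had 0.29, Star 0.24 and Cyp17a1 0.15. Of 9 markers of peritubular, endothelial and immune cells 7 were fitted higher in DKO than in P2KO, with a median log2 fold change of 0.24 and 3 at an unadjusted p under 0.05 (Acta2, Csf1r and Pecam1), where 6.17% of all tested genes were higher at that p, and 0 were called by edgeR. Their medians were −0.20 in P2KO against WT and 0.15 in DKO against WT, and their sums were 1684 and 1842 in WT, 1555 and 1703 in P2KO, and 1969 and 1791 in DKO. Of 10 spermatogonial markers 7 were fitted lower in DKO than in P2KO (median −0.07, 2 at an unadjusted p under 0.05, where 5.68% of all tested genes were lower, 0 called by edgeR), with sums of 3873 and 3824 in WT, 3928 and 3884 in P2KO, and 3663 and 3597 in DKO. In DKO against WT 5 were fitted higher and 5 lower (median 0.01). In P2KO against WT 8 were fitted higher and 2 lower (median 0.08). The part of these cell types in the member values was not tested.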

How the data were processed

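The authors prepared directional poly(A) RNA-seq libraries from testis, trimmed the reads with Trim Galore (cutadapt, per the labels), used STAR for alignment to GRCm38, and deposited 1 table of raw counts per Ensembl gene, with no normalization. All 6 columns were mapped to samples by name, and 0 columns of other samples were present. Versions and the strand setting are not given in the sources used here.

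Gene symbols, types, positions and merged exon lengths came from GENCODE mouse release vM21 (GRCm38). All 55536 identifiers were found. The members and gene lists were chosen with earlier results of these data known. The analysis used edgeR 4.0.16 and limma 3.58.1 under R 4.3.3. filterByExpr with a minimum count of 10 left 20744 genes. After TMM scaling, the 6 libraries entered 1 quasi-likelihood fit (glmQLFit, glmQLFTest) with genotype as its term (3 residual degrees of freedom, common biological coefficient of variation 0.0508), and p-values were adjusted by Benjamini-Hochberg over all tested genes, with calls at an adjusted p under 0.05. The SE is the absolute log2 fold change divided by the square root of F. The fit was also run on simulated counts, whose outcome is not given here and is not used as support. Exact permutation of 2 against 2 libraries cannot go below p = 0.333 and was not used. The 2 libraries per genotype are described as biological replicates. DESeq2 1.42.0, other scalings and filters, gene length offsets (lowess, span 0.3), the replicate block, fits without the chromosome 4 region, and fits leaving out each library were alternatives.

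Values in all libraries are given for the 3 largest fitted rises and falls of each comparison among members with a mean normalized count of at least 50, the 3 kinesins and 3 tubulins with the highest WT level per kb, and members with a protein at least 95% identical to another member. Kif13b, Kif18b, Kif20a, Kif24 and Tuba4a, which were called under an alternative, were named after their values had been seen.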

Additional observations from a re-analysis of the deposited data

How the results depend on the processing

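No member was called in P2KO against WT under any alternative, including each library left out. In DKO against WT the number called was 0 under every alternative that kept all libraries and 0 to 4 with a library left out (4 without WT replicate 1). In DKO against P2KO it was 2 with edgeR and 1 with DESeq2 on the 2 genotypes compared, and 0 to 2 with a library left out (2 without WT replicate 1 and 2 without WT replicate 2). The replicate numbers did not pair the libraries (correlations of deviations −0.057, 0.057 and −0.05 for the 3 pairs of genotypes). With the replicate block 0 members were called in any comparison, and all tested genes called were 45, 555 and 189 in place of 70, 668 and 250. With gene length offsets the median log2 fold change was 0.022 over Kif genes and 0.061 over tubulins in DKO against WT and 0.141 over tubulins in DKO against P2KO, and with these offsets and the block together 0.023, 0.06 and 0.141. With a library left out, the tubulin median ran from −0.089 to −0.041 in P2KO against WT, −0.074 to 0.056 in DKO against WT (−0.074 without DKO replicate 1) and 0.049 to 0.15 in DKO against P2KO, and the Kif median from −0.004 to 0.042, 0.059 to 0.118 and 0.061 to 0.115 in the same order (0.118 and 0.073 in DKO against WT without WT replicates 1 and 2, 0.059 without DKO replicate 1). Of 42 log2 fold changes of named members, 33 moved by over 1.5 times in either direction with some library left out.

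Partner genes and cell type markers together gave 1, 14 and 5 calls in P2KO against WT, DKO against WT and DKO against P2KO. For P2KO against WT there were 3 with upper-quartile scaling, 7 with no filter, and 2 with length offsets or with DESeq2 on 2 genotypes. For DKO against WT there were 9 with length offsets, 8 with offsets and the block, 7 with DESeq2 on all libraries and 8 on 2 genotypes. For DKO against P2KO there were 9 with no filter, 2 with the replicate block, 3 without the chromosome 4 region and 13 with edgeR on 2 genotypes. With a library left out they were 0 to 13 (13 without WT replicate 1), 5 to 21 and 1 to 14 (14 without WT replicate 2). The sign of near-zero log2 fold changes turned for Kif2b in DKO against WT (−0.016 with upper-quartile scaling; −0.024 to 0.033 with a library left out), Tubb4b in DKO against WT (0.032 with length offsets, 0.031 with the block added; −0.096 to 0.056) and DKO against P2KO (−0.065 to 0.087), Kif27 in P2KO against WT (−0.007 to 0.093) and DKO against P2KO (−0.015 to 0.091), Tuba3a and Tuba3b in DKO against WT (0.064 for Tuba3a with length offsets and −0.019 for Tuba3b with upper-quartile scaling; −0.074 to 0.064 and −0.052 to 0.051) and Kif9 in P2KO against WT (−0.039 to 0.026). The log2 fold change of −0.23 of Kif26b in P2KO against WT also turned with a library left out (−0.53 to 0.04; 0.007 without WT replicate 2 and 0.04 without P2KO replicate 1). The causes were not tested. With 21939393 to 27306679 counts per library, low genes such as Tubg2 and Kif26b have the widest intervals.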
